A study of Mus musculus with 24 samples.

Results

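Wild-type mouse embryonic fibroblasts that received siCop1 together with KL001, without Dexa, were compared with the same cells given siCTRL and DMSO, also without Dexa. siCop1 was taken as a small interfering RNA against Cop1 and siCTRL as its control, DMSO is the solvent control of the compound KL001, and Dexa is written as in the labels. The libraries were chosen by these labels, 3 with both treatments and 3 controls, which are 6 of the 24 mRNA libraries of the series, and all genes of the count table entered the comparison. The 3 libraries with siCop1 and DMSO and the 3 with siCTRL and KL001, likewise without Dexa, gave the separate effect of each treatment, and the 12 libraries with Dexa gave the same contrasts in samples that share no library with these. All 8 groups are of wild-type genotype. Doses, exposure times, siRNA sequences and the number of embryos or cultures behind the cells are not stated in the labels. Nothing in the labels says that replicates came from separate cultures, so p-values measure the spread between these libraries, which may be technical.

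Cop1 (the table carries its older symbol, Rfwd2) brings substrates to a ubiquitin ligase of the CRL4 class, built on the scaffold Cul4a or Cul4b and the adaptor Ddb1, and so marks Jun and several ETS family transcription factors for degradation. The compound KL001 stabilises cryptochromes, which are the proteins that repress the CLOCK and BMAL1 activator of the circadian clock and so lower the transcription of clock genes with E-box promoters, the cryptochrome genes included. The combination therefore joins loss of a ligase receptor to stabilisation of proteins that, by the title of the series, hinder the assembly of the same ligase.

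Promoter windows of 3 genes on which the results turn are shown because each holds the letters of a motif read by a factor of these pathways. They are the 200 bases before the RefSeq start in GRCm38.p6, 5′ to 3′ on the strand of the gene, with the motif in capitals.
Cry1, chr10:85185055-85185254, minus strand: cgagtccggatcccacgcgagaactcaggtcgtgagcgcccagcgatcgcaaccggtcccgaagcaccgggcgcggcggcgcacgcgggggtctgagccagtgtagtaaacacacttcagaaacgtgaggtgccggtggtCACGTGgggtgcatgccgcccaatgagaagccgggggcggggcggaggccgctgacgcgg
Mmp3, chr9:7445622-7445821, plus strand: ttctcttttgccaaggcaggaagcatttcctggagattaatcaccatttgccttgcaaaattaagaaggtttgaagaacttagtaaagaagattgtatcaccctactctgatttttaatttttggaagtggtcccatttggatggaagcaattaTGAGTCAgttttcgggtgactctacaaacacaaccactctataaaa
Hmgcs1, chr13:119690151-119690350, plus strand: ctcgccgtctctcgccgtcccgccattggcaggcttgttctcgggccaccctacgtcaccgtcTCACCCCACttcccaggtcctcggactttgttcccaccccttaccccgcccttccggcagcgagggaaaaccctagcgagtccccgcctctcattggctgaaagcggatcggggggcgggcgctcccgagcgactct
In Cry1 the capitals mark an E-box (CACGTG), whose first base in this orientation lies 60 bases before the start. In Mmp3 they mark an AP-1 site (TGANTCA, read by Jun and Fos family proteins) at 46 bases. In Hmgcs1 they mark a sterol regulatory element (TCACNCCAC, read by SREBP proteins) at 137 bases. This last motif was added after the values had been seen. Searched on both strands over the full RefSeq windows of 250 bases before to 50 after a start, the E-box was present in 7.15%, the AP-1 site in 7.81% and the sterol element in 1.24% of 32851 windows. A match describes the letters and is not evidence of binding.

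Library totals without Dexa ran from 24244232 to 27875023 counts. Of 47480 genes in the table, 14772 had enough counts to be tested. Levels are given as CPM, counts scaled to 10 to the power 6 per TMM-adjusted library, and changes as log2 ratios with standard errors (SE). A gene is said to have changed, risen or fallen where the adjusted p, from the quasi-likelihood test of edgeR with Benjamini-Hochberg adjustment over all tested genes, was below 0.05. All 12 fibroblast markers of a fixed list were detected in each group, with summed levels of 55150 to 58520 CPM in the control libraries and 42400 to 43840 CPM with both treatments. Within its group the library siCTRL KL001 replicate 2 stood apart in markers of other tissues, with 175 CPM of heart muscle, 13.45 CPM of macrophage and 84.3 CPM of airway markers. The other 2 of its group held 15.5 and 16.75 CPM, 8.23 and 8.16 CPM, and 55.1 and 30.9 CPM. Outside its group, heart muscle markers held 131.6 CPM in siCTRL DMSO replicate 1, and macrophage markers 10.55 to 15.39 CPM with siCop1 alone. The library siCTRL KL001 replicate 2 stands on neither side of the combined change. It is part of every comparison with KL001 alone and of the sum of single changes without Dexa. As all 8 groups were fitted together, it also enters the spread behind the p-values of the combined change. A fit on only the groups of the combined change, without this library, called 4626 genes. Summed airway markers reached 106 CPM in siCop1 KL001 replicate 2 and were 41.5 and 66.4 CPM in the other 2 combined libraries, against 36.6 to 64.99 CPM in the controls. With siCop1 alone they were at 44.2, 86.2 and 54.65 CPM. Endothelial markers went from 35.45 to 37.1 CPM in the controls to 29.4 to 31.9 CPM in the combination, and squamous markers from 34.8 to 41.9 CPM to 31.6 to 34.7 CPM.

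Cop1 knockdown held in the combination. Rfwd2 stood at 29.7, 28.6 and 26.85 CPM in the 3 control libraries and at 4.33, 5.17 and 5.79 CPM with siCop1 and KL001. The groups did not overlap, and the combined log2 change was -2.47 (SE 0.071, edgeR adjusted p = 5.2e-21). With siCop1 alone Rfwd2 was at 4.66, 4.78 and 4.997 CPM, close to the combination (difference 0.09 on the log2 scale, edgeR adjusted p = 0.785). With KL001 alone it was at 28.7, 26.15 and 27.97 CPM, within the range of the controls except for replicate 2.

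Across the transcriptome the combination changed 4907 of 14772 genes (33.2%), 2161 higher (14.6%) and 2746 lower (18.6%), of which 130 rose and 275 fell at least 2-fold. The shares of 14.6% higher and 18.6% lower are the background for the members called in the combination in each list below. Against the same control libraries siCop1 alone changed 4342 genes (29.4%; 12.8% higher and 16.6% lower), 291 of them at least 2-fold. KL001 alone changed 994 (6.73%; 3.22% higher and 3.51% lower), 26 of them at least 2-fold. The KL001 count was 225 in a fit on its own 6 libraries, where 29.8% of the called genes were higher. It was 1750 with length and GC trends removed and library means set to 0, where 60.1% were higher. The share was 47.9% for the 994. The median log2 change over all tested genes was -0.0063 in the combination, -0.0097 with siCop1 and -0.0026 with KL001.

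**Figure D1:**
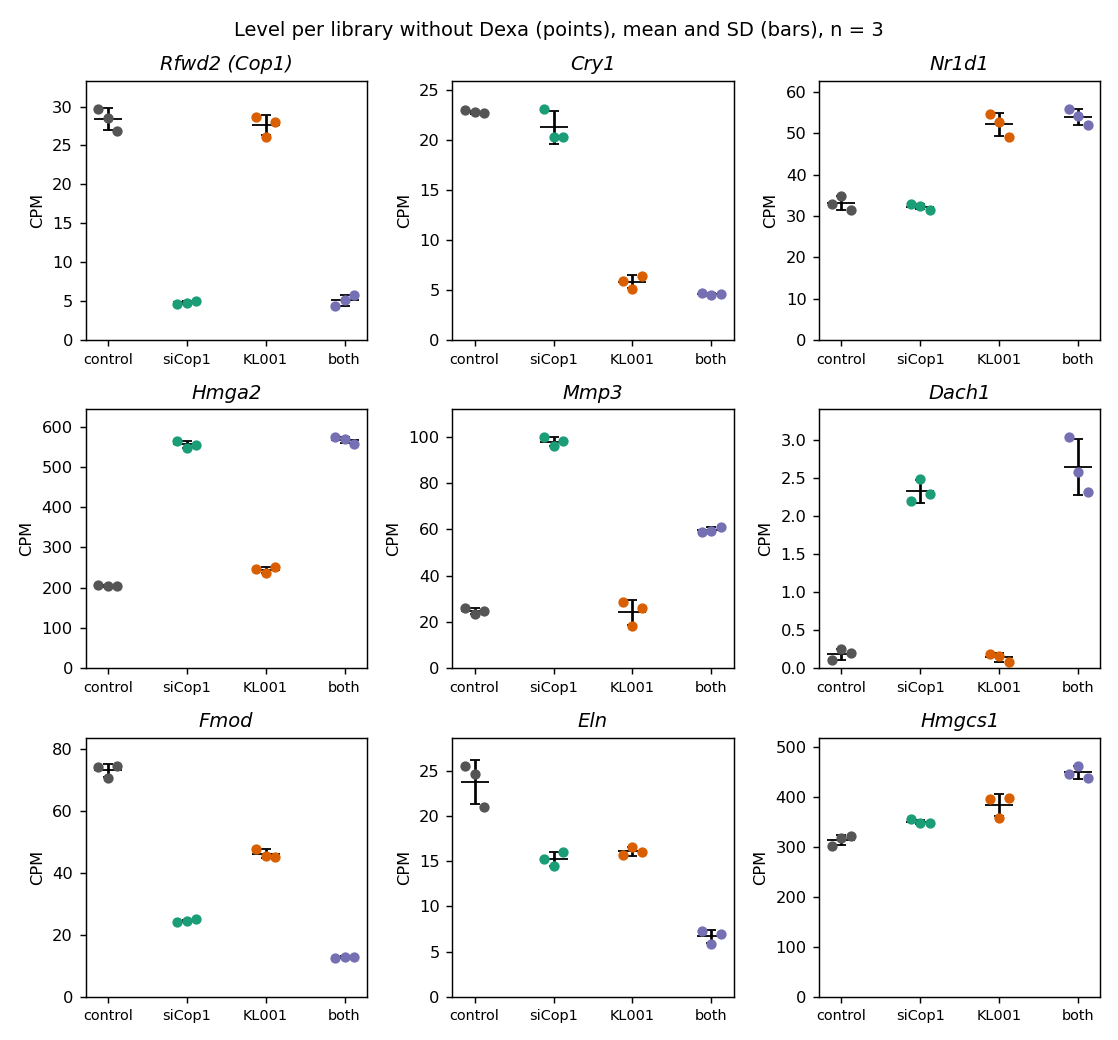
Levels of 9 genes in CPM (vertical axis) in the control, siCop1, KL001 and combined groups without Dexa (horizontal axis), where points are libraries and bars the mean and SD, n = 3. The combination lies near siCop1 for Rfwd2, Hmga2 and Dach1 and near KL001 for Nr1d1, and beyond both single treatments for Cry1, Fmod, Eln and Hmgcs1, with Mmp3 between siCop1 and the controls.

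The genes with the largest rises in the combination came mostly with siCop1. Dach1, a transcriptional cofactor, was at 0.108, 0.253 and 0.199 CPM in the controls and 3.04, 2.59 and 2.315 CPM with both treatments. All 3 combined libraries were above all 3 controls, by 3.82 on the log2 scale (SE 0.268), beside 3.63 with siCop1 alone and -0.33, not called, with KL001 alone. At these levels Dach1 rests on few reads in the controls. The secreted factor Angptl7 stood at 5.48, 5.35 and 5.84 CPM in the controls and 29.4, 28.5 and 29.05 CPM in the combination, a log2 change of 2.38 (SE 0.099). With siCop1 alone it was at 25.04, 23.2 and 25.35 CPM, so it was high in every library with siCop1.

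The other genes named by size among those higher were Akr1c18, a hydroxysteroid dehydrogenase (3.19), the growth cone protein gene Gap43 (2.17), the serotonin receptor gene Htr2a (2.15), the complement receptor gene C3ar1 (2.11), the urea transporter gene Slc14a1 (2.07), Cd300lb (2.02), the synaptic scaffold gene Dlgap2 (2.01) and the serine protease gene Prss22 (1.90), as combined log2 changes. Each of these 8 also rose with siCop1 alone, with log2 changes from 1.49 for Dlgap2 to 4.43 for Akr1c18. None of the 8 was called with KL001 alone, where values ran from -0.66 for Slc14a1 to 0.63 for Akr1c18. Akr1c18 belongs to a family of close copies and varied from 1.19 to 5.21 CPM among the siCop1 libraries, so its single and combined values are uncertain.

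Among the genes that fell most, both treatments contributed to several. Fmod, encoding the collagen-binding proteoglycan fibromodulin, was at 74.2, 70.55 and 74.7 CPM in the controls, 24.1, 24.5 and 24.99 CPM with siCop1, 47.9, 45.6 and 45.1 CPM with KL001 and 12.48, 13.01 and 12.92 CPM with both. The 4 groups did not overlap, and the combined log2 change of -2.51 (SE 0.049, edgeR adjusted p = 4.07e-25) stood beside single changes of -1.58 and -0.66. Igfbp3, which encodes a binding protein of insulin-like growth factors, went from 23.1, 21.01 and 22.5 CPM in the controls to 2.77, 3.44 and 3.73 CPM. Its combined change of -2.74 (SE 0.113) compared with -2.52 for siCop1 and -0.91 for KL001, both called. The combined libraries overlapped those with siCop1 alone, at 3.14 to 4.63 CPM.

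Frzb, a secreted inhibitor of Wnt signalling, fell by 2.33, with a called siCop1 change of -1.53 and a KL001 change of -0.38 that was not called. Trpm5, a cation channel gene, fell by 2.53 (siCop1 -1.55, KL001 -1.23, both called). Fxyd1, encoding a regulator of the sodium pump, fell by 2.70 (siCop1 -1.40, called; KL001 -1.04, not called). The last 2 genes were below 0.53 CPM in each combined library, where few reads carry the value. Cry1 and Rfwd2 complete the genes named by this rule, apart from 3 genes of striated muscle.

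**Figure D2:**
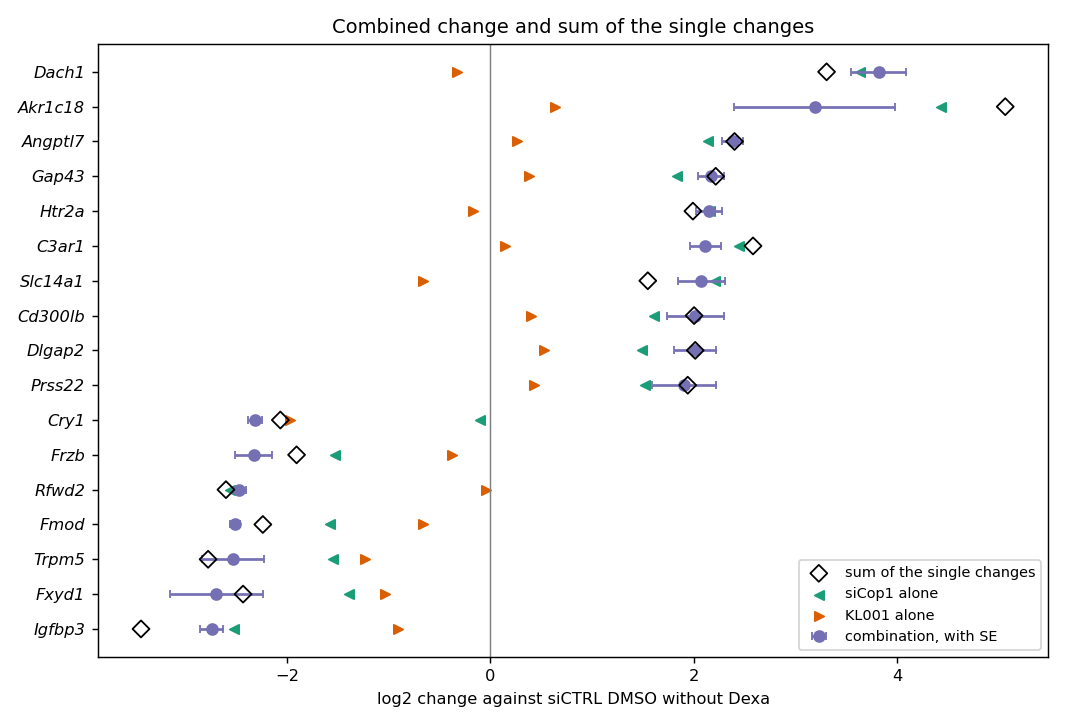
Log2 change against siCTRL DMSO without Dexa (horizontal axis) for the genes named by size (vertical axis), without Mb, Tnni3 and Des. Circles with SE bars are the combination, triangles the single treatments and open diamonds the sum of both single changes. Angptl7 (2.38 against a sum of 2.4003) lies on its sum and Igfbp3 (-2.74 against -3.44) falls short of it.

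The muscle genes were Mb, Tnni3 and Des, which encode myoglobin, cardiac troponin I and desmin. Mb was at 28.3, 5.56 and 10.5 CPM in the controls and 0.078, 0.0772 and 0.0373 CPM in the combination, a fitted log2 change of -7.76 (SE 2.88). With KL001 alone it was at 0.0777, 29.85 and 0.0387 CPM, so 1 of those 3 libraries was as high as the controls. Tnni3 changed by -3.16 and Des by -3.01. Tnni3 lost its call without each of the 6 libraries in turn (edgeR adjusted p from 0.0531 to 0.18), and Mb without each but siCTRL DMSO replicate 2 (0.0571 to 0.134).

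A list of 18 heart muscle markers was lower as well. Tnni3 and Des belong to this list, so their values enter its sum. Its summed level was 50.5 to 132 CPM in the controls, 15.5, 175 and 16.75 CPM with KL001, 8.14 to 11 CPM after siCop1 and 7.84 to 9.50 CPM after the combination, and Myh6, Myh7, Myl2, Myl3 and Myl7 were at 0 in the last group. The part of such RNA in these falls was not tested. In bulk RNA, fewer cells of a type and less RNA per cell cannot be told apart. An alternative added later left the marker genes of all 6 cell types out of the fit and called 4915 genes.

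Of the ligase and its partners (10 genes), 1 rose and 4 fell in the combination, beside 14.6% higher and 18.6% lower over all tested genes. Besides Rfwd2, Ddb1, the adaptor of the ligase, fell by 0.10 on the log2 scale, from 1348 ± 32.5 to 1260 ± 17.8 CPM (SD, n = 3), a call that was lost without siCTRL DMSO replicate 3 (edgeR adjusted p = 0.0517). The Tribbles pseudokinases, which hand substrates to Cop1, went different ways. Trib3 fell by 0.56 and Trib2 by 0.32, whereas Trib1 rose by 0.36. Cul4a (-0.04), Cul4b (0.03), Rbx1 (-0.04), Dda1 (-0.09) and Det1 (-0.13) were not called.

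Transcripts of 11 genes for described Cop1 substrates split into 3 that rose and 5 that fell, beside 14.6% and 18.6% of all tested genes. The list's median was -0.0188 and turned positive with length and GC trends removed, so no direction is given for it. Jun was at 86.9, 79.6 and 83.1 CPM in the controls and 119, 115 and 117 CPM in the combination (log2 0.49, SE 0.037). It had been at 121, 125 and 123 CPM with siCop1 alone and near the controls, at 85.9 to 87.6 CPM, with KL001 alone. Of the ETS genes in this list, Etv4 and Etv5 moved the other way, and values of Ets1, Ets2 and Etv1 are not given here. Etv5 fell from 27.1, 26.9 and 25.2 to 14.4, 15.8 and 14.9 CPM (log2 -0.81, SE 0.056). Etv4 fell from 31.8, 32.6 and 32.4 to 23.3, 22.3 and 24.1 CPM (log2 -0.47, SE 0.054), with no overlap for either gene. Etv4 was lower in the combination than with siCop1 alone (-0.25, edgeR adjusted p = 0.00444) and than with KL001 alone (-0.33, 2.74e-05).

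Of 20 tested genes described as targets of AP-1 and ETS factors, 10 rose and 5 fell, with a median log2 change of 0.29 beside 0.29 with siCop1 and 0.11 with KL001. Hmga2, an architectural chromatin protein gene, was at 206, 204 and 203 CPM in the controls and 573, 569 and 558 CPM in the combination (log2 1.47, SE 0.030). It stood at 564, 548 and 554 CPM with siCop1 and 246, 236 and 251 CPM with KL001. Each treatment alone raised Hmga2, and the combined libraries overlapped those with siCop1 alone. Fosl1, an AP-1 subunit gene, rose from 12.5, 12.1 and 11.08 to 30.9, 28.96 and 31.7 CPM (log2 1.36). Plaur, the receptor gene of urokinase, rose by 0.68, and both reached the siCop1 level in the combination.

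Mmp3 and Mmp13, genes of matrix metalloproteinases, stayed below it. Mmp3, whose promoter window with an AP-1 site is printed above, was at 26.04, 23.6 and 24.6 CPM in the controls, 99.9, 96.1 and 98.1 CPM with siCop1, 28.6, 18.1 and 25.99 CPM with KL001 and 59.1, 59.5 and 61.2 CPM with both. It rose in the combination by 1.28 (SE 0.088) and was 0.71 lower than with siCop1 alone on the log2 scale (log2 -0.71, edgeR adjusted p = 2.44e-06). Mmp13 was at 2.57, 2.60 and 2.58 CPM with siCop1 and 0.936, 0.965 and 1.27 CPM with both (log2 -1.28, edgeR adjusted p = 0.0108). Its rise over the controls (1.21) lost the call without siCop1 KL001 replicate 3 (edgeR adjusted p = 0.0747) or siCTRL DMSO replicate 2 (0.0968). Mmp10 was at 0.783, 0.855 and 0.645 CPM with siCop1 and 0.429, 0.155 and 0.597 CPM with both, a difference that was not called (log2 -0.94, edgeR adjusted p = 0.184). Mmp3, Mmp10 and Mmp13 are related genes, and how reads shared by related genes were counted is not given in the sources used here. In this list, 6 of 16 genes with a RefSeq window held the AP-1 letters, beside 8.97% of all genes with a window. Of the 6, 3 are these metalloproteinases.

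Feedback inhibitors of MAP kinase signalling rose in 9 of 15 cases and fell in 2, with a median of 0.28. The median was 0.14 without siCop1 KL001 replicate 3, 0.15 without siCTRL DMSO replicate 1 and 0.18 without siCTRL DMSO replicate 2. Dusp6, an ERK phosphatase gene, was at 29.3, 29.85 and 27.01 CPM in the controls and 50.7, 51.4 and 51.4 CPM in the combination (log2 0.83, SE 0.045), near the siCop1 level of 51.7 to 56.3 CPM. Errfi1, encoding an inhibitor of EGF receptor signalling, rose by 0.84 and Dusp4, another MAP kinase phosphatase gene, by 0.64. The Sprouty gene Spry4 fell by 0.73, from 17.2 ± 1.56 to 10.4 ± 1.31 CPM (SD, n = 3).

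Clock genes mostly fell, with counts near those of KL001 alone. Of 24, 4 rose and 13 fell in the combination (median -0.25), beside 2 and 11 with KL001 (median -0.21) and 3 and 9 with siCop1 (median -0.10). Cry1 was at 22.9, 22.7 and 22.6 CPM in the controls, 23.1, 20.3 and 20.3 CPM with siCop1, 5.90, 5.10 and 6.42 CPM with KL001 and 4.72, 4.44 and 4.555 CPM with both. It fell by 2.32 (SE 0.073, edgeR adjusted p = 3.32e-20), and all 3 combined libraries lay below the lowest with KL001 alone (difference -0.35, edgeR adjusted p = 0.00401).

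Per2, a partner of the cryptochromes, went from 14.1, 16.4 and 16.6 CPM to 6.16, 5.75 and 5.08 CPM (log2 -1.47, SE 0.103), within the KL001 range of 5.06 to 7.85 CPM. Npas2, a paralogue of Clock, fell by 1.16, and Arntl, which encodes BMAL1, from 35.9, 35.99 and 35.7 to 19.9, 21.1 and 22.3 CPM (log2 -0.77). Cry2 fell by 0.55 and Per1 by 0.21, and neither was called against KL001 alone (edgeR adjusted p = 0.394 and 0.852). Nr1d1, encoding the repressor REV-ERB alpha, was the clock gene that rose most. It stood at 32.8, 34.9 and 31.5 CPM in the controls and 55.96, 54.1 and 52.05 CPM in the combination (log2 0.71, SE 0.046), with the siCop1 libraries at control level and the KL001 libraries at 49.2 to 54.8 CPM.

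The output regulators Dbp and Hlf, of the PAR bZIP family, fell with either treatment and in the combination. Dbp was at 39.3, 35.9 and 36.1 CPM in the controls, 27.5, 27.1 and 28.25 CPM with siCop1, 21.4, 25.4 and 24.2 CPM with KL001 and 20.7, 19.7 and 23.97 CPM with both. The combined log2 change of -0.79 was smaller in size than the sum of the single changes, -1.08. Hlf fell by 1.04. Ciart, which encodes a circadian repressor, fell by 0.61 with a siCop1 change of -0.51 and a KL001 change of -0.03. E-box letters were present in the windows of 5 of 19 matched clock genes, which are Per1, Cry1, Tef, Bhlhe41 and Ciart. Over all genes with a window the share was 8.09%. The windows of Dbp and Nr1d1 held none.

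Many genes of the extracellular matrix fell. Of 21 genes of elastic fibres, 2 rose and 14 fell in the combination (median -0.27), 3 and 12 with siCop1 (median -0.18) and 2 and 11 with KL001 (median -0.13). Against siCop1 alone 9 were lower and 1 higher in the combination, beside 2.32% lower and 1.77% higher over all tested genes in that comparison. Eln, the elastin gene, was at 25.5, 24.6 and 21.01 CPM in the controls, 15.2, 14.5 and 16.04 CPM with siCop1, 15.65, 16.6 and 15.97 CPM with KL001 and 7.25, 5.87 and 6.91 CPM with both. The single treatments overlapped each other, and the combined libraries lay below all others. The combined change was -1.83 (SE 0.095), with -1.19 against siCop1 alone (edgeR adjusted p = 4.04e-09) and -1.27 against KL001 alone (5.1e-11).

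Mfap4 and Mfap2, genes of microfibril-associated proteins, fell by 2.15 and 1.16, and Fbln5, encoding the elastogenic fibulin-5, by 0.72. Among 24 collagen genes 1 rose and 17 fell (median -0.27), with 1 and 12 for siCop1 (median -0.10) and 1 and 14 for KL001 (median -0.18). Against siCop1 alone 12 were lower and 1 higher, again beside 2.32% and 1.77% of all tested genes. Col8a2 fell from 11.9, 10.99 and 14.3 to 2.26, 2.51 and 3.06 CPM (log2 -2.24, SE 0.145), below the siCop1 range of 4.78 to 5.25 CPM. Col14a1 fell by 1.88 and Col11a1 by 0.92. Col1a1, which encodes a chain of type I collagen, fell by 0.54, from 22870 ± 1041 to 15780 ± 483 CPM (SD, n = 3). Collagens and fibroblast markers overlap, since Col1a1, Col1a2 and Col3a1 stand in both lists.

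Of 18 tested genes of the contractile apparatus and of serum response factor targets, 0 rose and 15 fell (median -0.29, beside -0.23 with siCop1 and -0.08 with KL001). The summed heart muscle markers, given above, went from 50.5 to 132 CPM in the controls to 7.84 to 9.50 CPM in the combination, and their part in these falls was not tested. Acta2, smooth muscle actin, was at 3001, 3035 and 2933 CPM in the controls, 1967, 1965 and 1938 CPM with siCop1 and 1692, 1676 and 1721 CPM with both (log2 -0.82, SE 0.026). Actg2 fell by 1.25 and the calponin gene Cnn1 by 1.04. In BMP and TGF-beta signalling 4 of 21 genes rose and 12 fell (median -0.25), and 1 rose and 12 fell (median -0.37) without siCTRL DMSO replicate 1. The BMP target genes Id1, Id2 and Id3, inhibitors of bHLH factors, fell by 0.95, 1.43 and 0.69. Id2 was at 17.8, 15.95 and 15.9 CPM in the controls, 8.76, 8.94 and 7.62 CPM with siCop1, 14.7, 17.1 and 16.9 CPM with KL001 and 6.785, 5.75 and 5.90 CPM with both, so the combined libraries lay below all others. KL001 changed Id2 by -0.46 in cells with siCop1 (edgeR adjusted p = 0.00497) and its value was -0.03 in cells with siCTRL. The difference between these changes, -0.43, did not pass the threshold (edgeR adjusted p = 0.425).

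**Figure D3:**
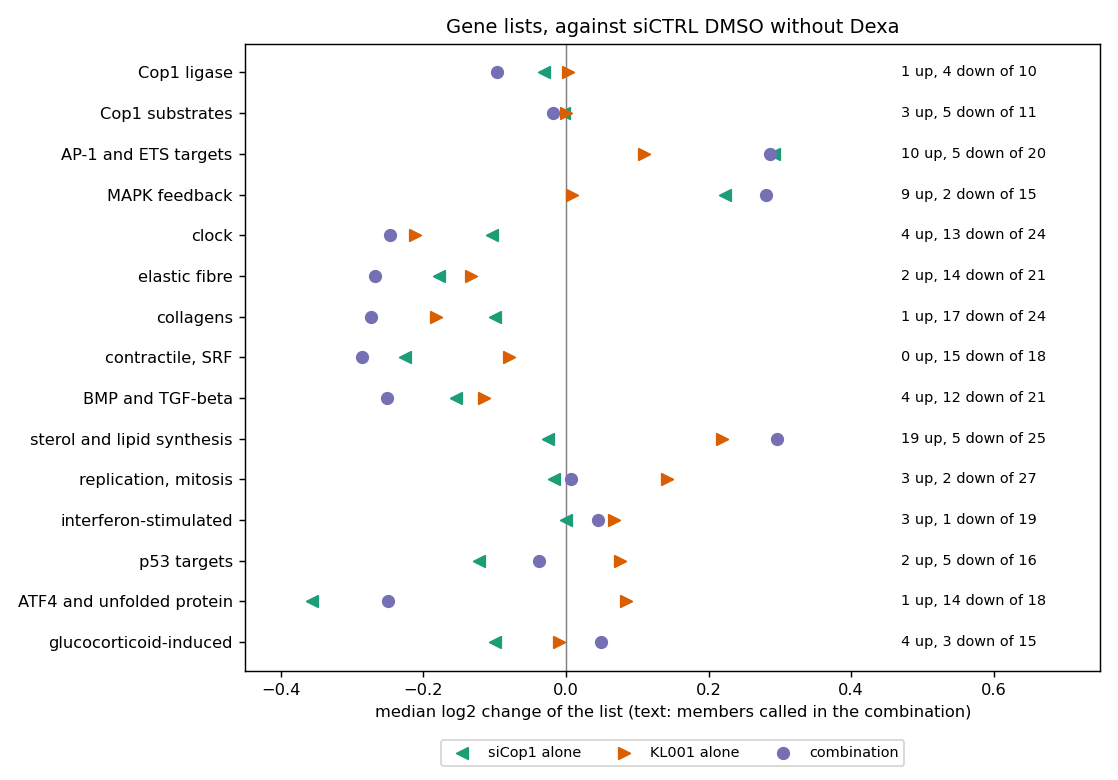
Median log2 change of 15 gene lists (vertical axis) against siCTRL DMSO without Dexa (horizontal axis), with left-pointing triangles for siCop1, right-pointing triangles for KL001 and circles for the combination. Text gives the members called in the combination. Elastic fibre, collagen, contractile and BMP lists have lower medians in the combination than with either treatment, and the sterol list has a higher one.

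Sterol and fatty acid synthesis rose. Of 25 genes 19 rose and 5 fell in the combination (median 0.30), with 21 and 0 for KL001 alone (median 0.22) and 5 and 9 for siCop1 alone (median -0.03). Against siCop1 alone, 23 of 25 were higher and 0 lower, where 1.77% of all tested genes were called higher. Hmgcs1, the mevalonate pathway synthase whose promoter window is printed above, was at 302.5, 318.5 and 321 CPM in the controls, 355, 348 and 348 CPM with siCop1, 395, 358 and 398 CPM with KL001 and 446, 462 and 438 CPM with both. All combined libraries were above all others, with a log2 change of 0.51 (SE 0.039).

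Idi1 (0.70), Fasn (0.56) and Fdps (0.56), for isopentenyl diphosphate isomerase, fatty acid synthase and farnesyl diphosphate synthase, rose likewise. Outside the naming rule, Insig1, which retains SREBP in the endoplasmic reticulum, fell by 0.13, with opposite single changes of -0.53 for siCop1 and 0.33 for KL001. The sterol letters were present in 1 of 15 matched genes of the list, Hmgcs1, beside 1.44% of all genes with a window.

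Genes of the amino acid and unfolded protein responses moved in opposite directions with the single treatments. Of 18, 14 fell and 1 rose in the combination (median -0.25), as with siCop1 (median -0.36), whereas 8 rose and 0 fell with KL001 (median 0.08). The count that rose with KL001 was 6 to 7 without 1 library. With length and GC trends removed, 10 rose and 2 fell with KL001. Asns, asparagine synthetase, was at 370, 375 and 375 CPM in the controls, 265.5, 272 and 265 CPM with siCop1, 409.5, 420 and 417 CPM with KL001 and 297, 295 and 298 CPM with both. The 4 groups did not overlap and the combined change of -0.33 (SE 0.025) equalled the sum of the single changes at 2 decimals. For Trib3 the single changes were -0.83 and 0.18 and the combined change -0.56. Edem1, of endoplasmic reticulum degradation, fell by 0.53 and the stress factor gene Ddit3 by 0.46.

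Part of the genes of DNA replication and mitosis rose with KL001 in cells with siCTRL. There 10 of 27 rose and 0 fell (median 0.14), beside 3.22% higher over all genes, a count that was 7 without siCTRL DMSO replicate 3 and 16 with length and GC trends removed. In cells with siCop1 the same treatment gave 0 calls of 27 (median 0.0021), beside 1.77% higher and 2.32% lower over all genes, so a count of 0 is near that background. Mcm5, a helicase subunit gene, was at 91.0, 93.1 and 91.9 CPM in the controls, 106.5, 114 and 103 CPM with KL001, 88.7, 84.1 and 85.9 CPM with siCop1 and 86.5, 85.5 and 86.6 CPM with both. Summed over the list, the 3 KL001 libraries held 2143, 2154 and 2182 CPM and the other 9 libraries 1931 to 1997 CPM, without overlap.

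The combined log2 change of these genes minus the sum of the single changes was negative for 25 of 27 (median -0.16, beside 0.0035 over all genes). It had an unadjusted p under 0.05 for 16, against 6.65% of all tested genes, and an adjusted p under 0.05 for 0. With length and GC trends removed 2 were called. Leaving out each of 12 libraries moved the median between -0.17 and -0.13. With Dexa, in other libraries, the median was -0.11, with 26 of 27 negative and 0 called. These genes are expressed in the same cycling cells, so they are not independent of each other.

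**Figure D4:**
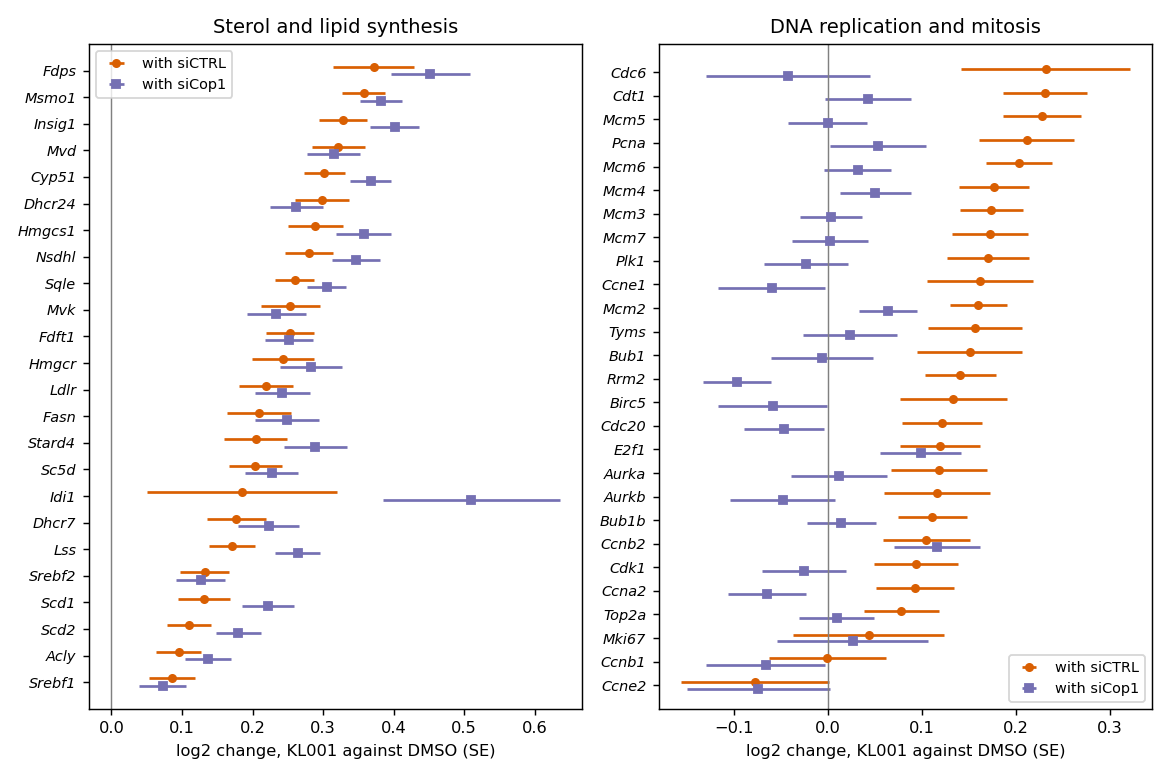
Log2 change with KL001 against DMSO (horizontal axis, bars SE) in cells with siCTRL (circles) and with siCop1 (squares), for 24 of the 25 genes of sterol and lipid synthesis (left) and 27 of DNA replication and mitosis (right), without Dexa. Most sterol genes lie above 0 in both, and the replication genes lie near 0 with siCop1.

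Changes in 3 further lists went both ways, beside 14.6% higher and 18.6% lower over all tested genes. Of 19 tested interferon-stimulated genes, 3 rose, near the share over all genes, and 1 fell. Ifit3, an antiviral effector gene with close copies, stood at 5.375, 5.47 and 4.61 CPM in the controls, 5.925, 5.71 and 6.045 CPM with siCop1, 5.90, 5.43 and 5.92 CPM with KL001 and 8.735, 8.53 and 9.035 CPM with both. The combined libraries lay above all others (log2 0.77, SE 0.087), and neither single change was called. Of 16 p53 targets, 2 rose, near the 14.6% of all genes, and 5 fell, a larger share than the 18.6% of all genes. Only 2 fell without siCTRL DMSO replicate 1 or siCop1 KL001 replicate 2, and 4 rose and 2 fell with trends removed and library means set to 0. The cell cycle inhibitor gene Cdkn1a fell by 0.52. Of 15 glucocorticoid-induced genes 4 rose and 3 fell. Angptl4, a lipoprotein lipase inhibitor gene, rose by 0.62 as with KL001 alone (0.64), and Klf15, a metabolic transcription factor gene, fell by 0.75 as with siCop1 alone (-0.87).

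Summed macrophage markers were higher in all libraries with siCop1 than in the controls. Their summed level was 7.41 to 8.78 CPM in the controls, 10.55 to 15.4 CPM after siCop1, 8.16 to 13.45 CPM after KL001 and 12.6 to 17.9 CPM after the combination, where Aif1 and Fcgr1 were at 0. Of 17 such markers 7 could be tested, and 3 rose, beside 14.6% of all tested genes. C3ar1 and Cd300lb, named above, are also expressed by myeloid cells, and the part of such RNA in their rise was not tested. Cd300lb is itself among the macrophage markers, so their sum and calls are not separate from its rise.

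The combined change was then compared with the sum of the single changes. The difference, called departure here, is 0 where the fold changes of siCop1 and KL001 multiply. It was called for 0 of 14772 genes (0%) in edgeR, with 982 genes (6.65%) at an unadjusted p under 0.05 and a lowest adjusted p of 0.0608. DESeq2 called 15 genes. edgeR called 61 without the filter on low counts, 53 of them at 1 CPM or more, 30 with length and GC trends removed and 37 with library means also set to 0. The 95% interval of the departure lay inside -0.5 to 0.5 for 70.9% of all genes and for 84.8% of the 4907 that changed. Among the 405 genes that changed at least 2-fold, it lay inside these bounds for 77 (19%) and inside -1 to 1 for 214 (52.8%). For most of the genes that changed at least 2-fold, the interval therefore did not exclude departures of 0.5 or more in size.

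The 6 genes with the lowest p for the departure were looked at after their values were seen. None passed the threshold in edgeR, and all 6 passed in DESeq2 on the same libraries (adjusted p from 0.000294 for Mmp3 to 0.0134 for Spon2 and Dkk2). For Hmga2 the departure was -0.23 (95% interval -0.32 to -0.14, edgeR adjusted p = 0.0608). Multiplying the single changes gives 664 CPM, adding them 595.5 CPM, and the combination was measured at 567 ± 8.11 CPM (SD, n = 3). Mmp3 had -0.68 (interval -0.94 to -0.42), with 59.95 ± 1.125 CPM measured against 95.95 CPM by multiplying and 97.5 CPM by adding. The protocadherin gene Pcdh20 (-0.51), the matrix protein gene Spon2 (-0.34) and the spermidine synthase gene Srm (-0.28) were likewise below both. The Wnt antagonist gene Dkk2 was above the product (0.39, interval 0.23 to 0.55) and near the added value, at 69.9 ± 0.81 CPM against 71.3 CPM. Without siCTRL KL001 replicate 2, which stood apart from its group in markers of other tissues, 6 genes passed. Among them were Hmga2, Mmp3 and Pcdh20 (edgeR adjusted p = 0.00705, 8.76e-09 and 0.000207). With Dexa, in other libraries, the departure was called for Hmga2 (-0.27, edgeR adjusted p = 0.00379). Mmp3 (-0.34), Pcdh20 (-0.35), Spon2 (-0.33), Srm (-0.20) and Dkk2 (0.29) were not called there (edgeR adjusted p from 0.115 to 0.643).

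Eln fell further than its single changes multiplied, with a departure of -0.63 (95% interval -0.90 to -0.36). Its adjusted p was 0.106 in edgeR and 0.0218 in DESeq2. The measured 6.68 ± 0.72 CPM stood beside 10.3 CPM by multiplying and 7.61 CPM by adding. Igfbp3 departed the other way (0.70, interval 0.33 to 1.06, edgeR adjusted p = 0.281), as did Dbp (0.29, interval 0.09 to 0.48, 0.516). For Angptl7 (interval -0.33 to 0.29), Nr1d1 (-0.05 to 0.22), Hmgcs1 (-0.05 to 0.18) and Acta2 (-0.16 to -0.01) the departure was at most 0.33 in size within its interval.

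Set against each treatment alone, the combination differed from siCop1 in 604 genes (4.09%; 261 higher, 1.77%, and 343 lower, 2.32%), a count of 950 in a fit on those 6 libraries. It differed from KL001 in 4835 (32.7%; 14.5% higher and 18.2% lower). From siCop1 alone 13 genes differed at least 2-fold, and these 13 were lower in the combination. They include the clock genes Cry1 (-2.22), Npas2 (-1.18) and Per2 (-1.06), Eln (-1.19), the protocadherin gene Pcdh10 (-1.01) and the neurotensin gene Nts (-1.43), examples chosen after their values were seen. With KL001 against DMSO in siCTRL cells, which shares no library with this comparison, the same genes changed by -1.97 for Cry1, -1.29 for Npas2, -1.27 for Per2, -0.56 for Eln, -0.90 for Pcdh10 and -1.41 for Nts, all called.

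The combination was compared with its controls in the libraries with Dexa as well. There it changed 5016 genes (34%; 15.7% higher and 18.3% lower). Of the 4907 genes changed without Dexa, 3691 (75.2%; 73.6% of the 5016) were called in the same direction and 8 in the opposite one. Across all 14772 genes the combined changes in the 2 settings had a Spearman correlation of 0.704 and a Pearson correlation of 0.807, given as a description over genes, which are not independent and have the same length and base composition in both settings. The departures had 0.078 and -0.023. With Dexa the combination gave 1 up and 13 down among 21 elastic fibre genes, 1 and 15 among 24 collagens, 0 and 14 among 18 contractile genes, 18 and 3 among 25 sterol and lipid genes and 2 and 13 among 18 genes of the amino acid and unfolded protein responses. Of 15 MAP kinase feedback genes 6 rose and 1 fell. The glucocorticoid-induced genes had 4 up and 3 down of 15 without Dexa and 1 up and 7 down with it. The differences of whole lists between the settings were not tested.

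Additivity was also read in genes chosen by their change in the libraries with Dexa, none of which enter the values without Dexa. Of 402 genes changed at least 2-fold with Dexa, 284 (70.6%) were called in the same direction without Dexa and 0 in the opposite. With signs turned to the direction seen with Dexa, their median change without Dexa was 0.92 for siCop1, 0.21 for KL001 and 1.15 for both, where the sum of the single changes also had a median of 1.15. Their median departure was 0.05. With Dexa the departure itself was called for 10 genes (0.0677%), 5 positive and 5 negative (0.0338% each), named after their values were seen. They include Hmga2 (-0.27), the cyclin gene Ccnd1 (-0.25), the BMP antagonist gene Grem1 (0.46), the thrombomodulin gene Thbd (0.45) and Angptl7 (0.44). Without Dexa the values of the same genes were -0.23, -0.20, 0.20, 0.29 and -0.02.

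The combined change differed between the Dexa settings for 119 genes (0.806%), 55 more positive with Dexa (0.372%) and 64 more negative (0.433%). Dkk2 rose by 0.44 without and 1.76 with Dexa (difference 1.32, SE 0.080, edgeR adjusted p = 9.31e-12). Ace, encoding angiotensin-converting enzyme, went from 15.4, 12.97 and 14.1 CPM in the controls to 3.16, 3.51 and 3.77 CPM without Dexa (log2 -2.02) and fell by 0.89 with Dexa. Tll1, a metalloproteinase gene that processes matrix and BMP inhibitors, fell by 0.67 without and rose by 0.39 with Dexa. Nptx1, a neuronal pentraxin gene, rose in both settings, by 1.74 without and 2.72 with Dexa.

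More positive without Dexa were Angptl7 (2.38 against 1.36), Hsd11b2, encoding the enzyme that inactivates glucocorticoids (0.91 against -0.04, the latter not called), and the zinc transporter gene Slc39a8 (1.29 against -0.16, the latter not called). The adrenergic receptor gene Adra2a fell more with Dexa (-0.74 against -2.25). The differences of the last 2 genes lost their calls without several single libraries (edgeR adjusted p up to 0.0999 for Slc39a8 and 0.214 for Adra2a). Outside the naming rule, Errfi1 rose by 0.84 without Dexa and was at -0.01 with Dexa. The glucocorticoid target genes Fkbp5 and Glul rose without Dexa (0.35 and 0.37) and fell with it (-0.27 and -0.24), and both differences were called. In the clock, the combined falls of Cry1 (-2.32 against -1.88), Arntl (-0.77 against -0.39) and Per1 (-0.21 against 0.0048, not called) were larger without Dexa, with edgeR adjusted p = 0.0309, 0.0411 and 0.0309 for the differences.

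**Figure D5:**
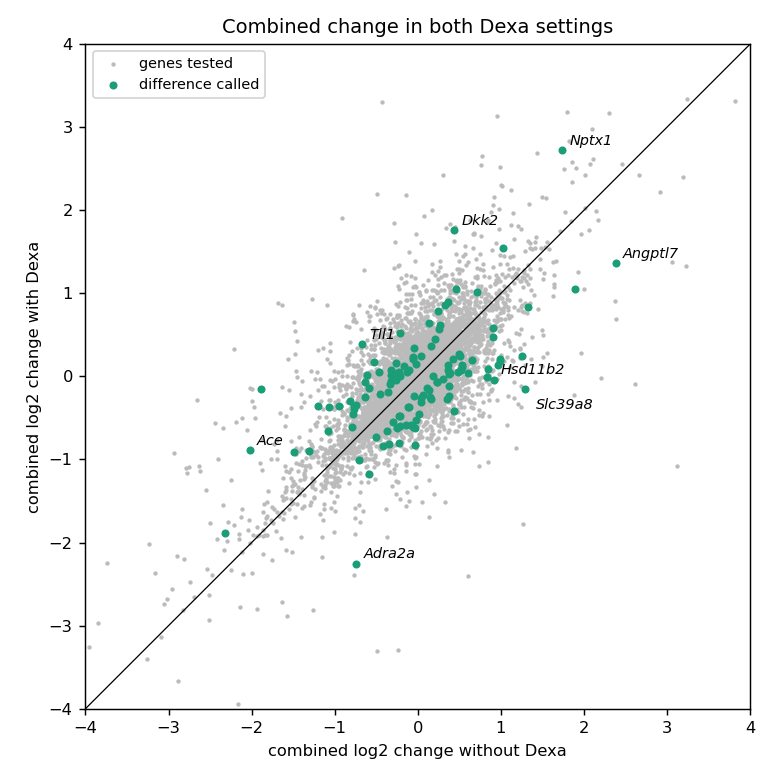
Combined log2 change without Dexa (horizontal axis) against that with Dexa (vertical axis), each over siCTRL DMSO of the same setting, for the tested genes (grey) and the 119 whose difference was called (green). The line marks equal change, and 32 genes outside the axis limits of -4 to 4 are not drawn. Dkk2 and Ace lie above the line and Angptl7 and Adra2a below it.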

How the data were processed

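The gene counts are whole-number counts deposited by the authors for 24 libraries in 8 groups of 3. Per the submitters' processing notes, bcl2fastq 1.8.4, STAR 2.4.5a, featureCounts of Subread 1.4.6-p3, Picard 1.126 and DESeq2 were used with GRCm38 (mm10). The annotation, strand setting and treatment of reads shared by related genes are not stated. The authors' normalized table was not used, and 0 sample columns of the count table were left out.

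Genes passed edgeR's filterByExpr (minimum count 10, minimum total 15), which kept 14772. Libraries were scaled by TMM and fitted together over all 8 groups with glmQLFit and glmQLFTest (R 4.3.3, edgeR 4.0.16), with Benjamini-Hochberg adjustment over all tested genes and a threshold of 0.05. The common biological coefficient of variation was 3.71%. Departure is the combined log2 change minus both single changes. Log2 intervals cover 95%, and CPM use TMM-scaled library totals. No 2 libraries were identical, and replicates differed beyond sampling noise (chi-square per degree of freedom 1.6 to 9.27).

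Genes were named by rule: 12 fixed genes; up to 6 called genes per list, largest combined change first; the 10 called genes of each direction with the largest combined change among those with a mean of at least 1 CPM and groups that do not overlap; and the 4 of each sign whose combined change differed most between the Dexa settings. Insig1, Mcm5, Ciart, Col1a1 and others said to be so were named after their values were seen. Members and lists were chosen with earlier results of these data known. Alternatives were RLE scaling, no filter, the replicate block, DESeq2 1.42.0, a fit on the groups compared, and leaving out each library. Removing length and GC trends and leaving out marker genes were chosen after seeing the data. Promoter windows come from RefSeq (GRCm38.p6). The fits were tested on simulated data. Among 14596 genes simulated for the departure, with 50 changed genes per size, 42% were recovered at a log2 size of 0.25, 68% at 0.5 and 90% at 1. The changed genes were drawn from those with a mean of at least 1 CPM. The simulated spread was that fitted to these data, and no library was made to stand apart. These shares therefore need not hold for all 14772 tested genes, and they may be too high for data in which few genes depart. The values of 1 gene of the sterol and lipid list are not reported here, though it is counted in the list.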

Additional observations from a re-analysis of the deposited data

Results flagged for a closer look

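The combined change differed with and without Dexa for 119 genes by a test of the difference itself. The 4 of each sign with the largest differences, by the rule for naming, follow. Values are the combined log2 change with Dexa minus that without. More positive with Dexa were the Wnt antagonist gene Dkk2 (1.32), the angiotensin-converting enzyme gene Ace (1.13), the metalloproteinase gene Tll1 (1.06) and the pentraxin gene Nptx1 (0.98). More negative with Dexa were Angptl7 (-1.02), Hsd11b2, which inactivates glucocorticoids (-0.95), the zinc transporter gene Slc39a8 (-1.44) and the adrenergic receptor gene Adra2a (-1.51). The differences for Slc39a8 and Adra2a lost their calls when any of several libraries was left out.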

How the results depend on the processing

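The combined change without Dexa called 4464 (DESeq2) to 5703 genes over the alternatives, and 4191 to 4487 without 1 library. The departure was called for 61 genes with no filter, 15 with DESeq2, 30 with length and GC trends removed and 37 with library means also set to 0, and for 0 to 6 without 1 library, the 6 without siCTRL KL001 replicate 2. With Dexa it was called for 59 with no filter, 5 with the replicate block, 24 with DESeq2 and 2 to 10 without 1 library. The difference by Dexa was called for 185 with no filter, 249 and 256 with trends removed, and 79 to 114 without 1 library. Against siCop1 alone 950 genes were called in a fit on those groups. KL001 alone called 225 in such a fit, 1672 and 1750 with trends removed, 653 without siCTRL DMSO replicate 3 and 1165 without siCTRL KL001 replicate 1. The cause was not tested. Small departures changed sign. Without 1 library they ran from -0.0263 to 0.0254 for Per1, -0.0969 to 0.0526 for Arntl and -0.1212 to 0.0771 for Angptl7, which was 0.0035 with trends removed. The combined values of Srm (0.017) and Ccnd1 (0.002), neither called, changed sign with library means set to 0. Of 1745 values of the combined change of 125 named genes, 1682 kept direction and side of the threshold and 61, in 16 genes, lost the call.

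The labels give replicate numbers 1 to 3 in each group. Deviations of same-numbered libraries correlated between -0.29 and 0.2 over 18 pairs, of which 2 were above 0.1, so the numbers were not taken to pair libraries. With the replicate block, 4899 genes were called in the combination, 0 for the departure and 108 for the difference by Dexa, and the count of 5 above was its only move beyond 1.5 times.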
